A study of Mus musculus with 18 samples.

Results

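Cardiac potassium channel genes, which shape the electrical recovery of the heart muscle cell, were followed in total RNA sequencing of 18 mouse hearts. The 9 genes were taken by symbol from a count table of 25731 symbols: Kcnd2, Kcnd3, Kcnip2, Kcna5, Kcnh2, Kcnq1, Kcnj2, Kcnj11 and Kcnk3. All 9 passed the filter on low counts that left 15088 genes for testing, with at least 273 counts in every library. The labels describe adult male C57BL/6 mice of about 20 g, WT, with hearts taken 7 days after surgery. The 3 groups held 6 animals each: ischemia-reperfusion with decursin (IR+Decursin), ischemia-reperfusion alone (IR) and sham surgery (SHAM). Decursin is a pyranocoumarin from the root of Angelica gigas; its dose and route, any vehicle, the duration of ischemia and the region of the heart sampled are not stated in the labels.

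Potassium channels carry the outward currents that bring the cardiac action potential back to rest. In the mouse ventricle a fast transient outward current, formed by the Kcnd2 and Kcnd3 pore proteins with the accessory protein Kcnip2, and a slowly inactivating current through Kcna5 do most of that work. Kcnh2 and Kcnq1 form the rapid and slow delayed rectifiers that dominate in larger mammals, Kcnj2 holds the resting potential, Kcnj11 opens when ATP falls, and Kcnk3 conducts a background leak. Loss of transient outward current is a known feature of injured and hypertrophied hearts.

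Libraries held 27.5 to 35.0 M counts. The labels put each group in a batch of its own, so an effect of batch and one of group cannot be told apart. Xist, the RNA of the inactive X chromosome, had over 1000 counts in 3 libraries (IR+Decursin 2, IR 3 and IR 4) and at most 8 in the others. In these 3 libraries it had 14072 to 14232 counts, although all animals are labelled male. A single transcript model, Gm26917, took 7.54% of the counts of IR+Decursin 6. The 18 cardiomyocyte markers were present in every library. Their summed levels were 62905 to 104391 CPM in IR+Decursin, 55900 to 75865 CPM in IR and 100276 to 116085 CPM in SHAM. Over all libraries Myh6 made up 17.4% of the sum, Mb 12.1%, Actc1 11.7% and Atp2a2 10.8%, so scaling to these markers follows the abundant ones most. CPM are counts per 1 M after scaling with TMM factors, which correct for the make-up of a library. In RNA from bulk heart tissue, fewer cells of a type and less RNA per cell cannot be told apart.

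At 7 days after ischemia-reperfusion without decursin, 6 of the 9 genes fell and 0 rose, a count that depended on the scaling between libraries. The 6 were Kcnd2, Kcnd3, Kcnip2, Kcna5, Kcnh2 and Kcnk3, called at a Benjamini-Hochberg adjusted p under 0.05 over all genes in edgeR's quasi-likelihood test. At an unadjusted p under 0.05 edgeR held 0 of the 9 higher (28.4% of all genes). DESeq2 called 0 of the 9 higher (21.6% of the 19212 genes to which it gave an adjusted p). In the same comparison 21.7% of all tested genes were called lower and 25.3% were called higher. The median log2 fold change was -0.47 over the 9 genes and -0.00 over all genes tested. In 4 of the 9 (Kcnd2, Kcnd3, Kcnip2 and Kcnh2) every IR library lay below every SHAM library in CPM, as did 11.6% of all tested genes. In FPKM, counts per kilobase and per 1 M without TMM factors, only Kcnd2 of these 4 kept IR and SHAM apart. Scaling to the cardiomyocyte markers instead of TMM left 0 of the 9 lower (1.03% of all genes) and turned the sign of Kcnd3, Kcnh2, Kcnk3, Kcnj2 and Kcnj11. That scaling also moved the median of all genes to 0.72 on the log2 scale and called 77.3% of all genes and 3 of the 9 higher (Kcnj2, Kcnq1 and Kcnj11). With total counts 3 of the 9 were called lower (Kcnd2, Kcnip2 and Kcna5), against 7.00% of all genes.

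**Figure D1:**
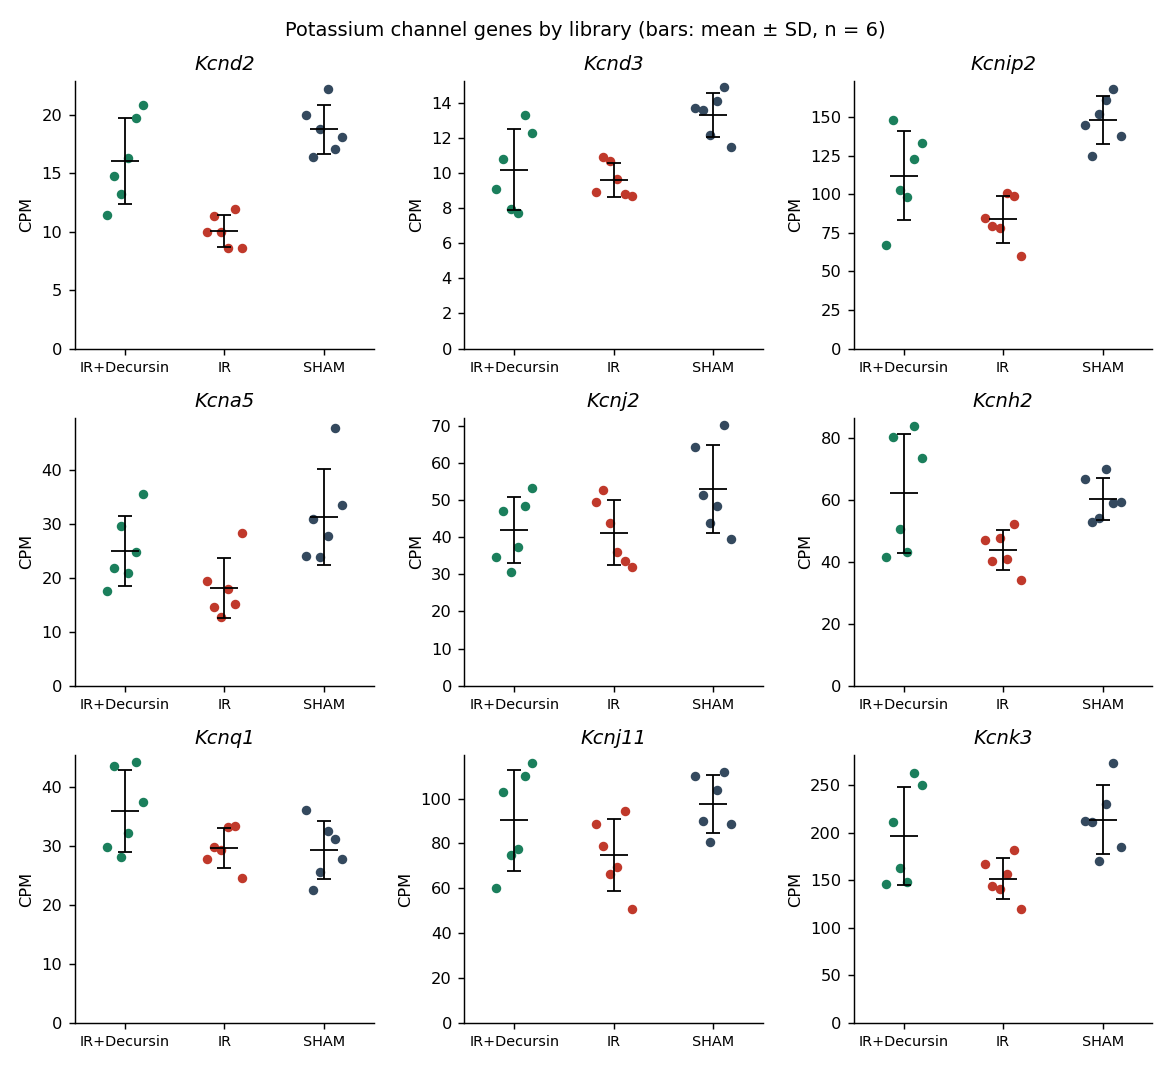
Level of each of the 9 potassium channel genes in every library, in counts per 1 M (CPM, y axis from 0), for IR+Decursin, IR and SHAM hearts from left to right; each point is 1 heart and the bars are mean ± SD, n = 6. Kcnd2, Kcnd3, Kcnip2 and Kcnh2 have every IR heart below every SHAM heart on this scale, while the IR and SHAM hearts of Kcnq1 share 1 range.

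Kcnd2, the pore subunit that sets much of the fast transient outward current in the mouse ventricle, changed most. Its lowest, median and highest levels were 11.4, 15.5 and 20.8 CPM in IR+Decursin, 8.58, 9.96 and 11.9 CPM in IR, and 16.4, 18.5 and 22.2 CPM in SHAM. The IR and SHAM hearts did not overlap, and the IR+Decursin hearts spanned from the IR range well into that of SHAM. Kcnd2 averaged 10.1 ± 1.37 CPM in IR and 18.8 ± 2.10 CPM in SHAM (SD, n = 6 each). The log2 fold change of IR over SHAM was -0.90 ± 0.13 (SE), with an adjusted p of 2.42e-05 in edgeR's quasi-likelihood test with Benjamini-Hochberg adjustment. It stayed lower, at -0.20, when libraries were scaled to cardiomyocyte markers, but was then not called (edgeR adjusted p = 0.161).

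Kcnip2, the calcium-binding protein that brings Kcnd channels to the membrane and slows their decay, fell by a similar amount. Its lowest, median and highest levels were 67.4, 113 and 148 CPM in IR+Decursin, 60.3, 81.9 and 101 CPM in IR, and 125, 149 and 168 CPM in SHAM. In CPM no IR heart reached the lowest SHAM heart, and 2 of the 6 IR+Decursin hearts reached the SHAM range. In FPKM, without TMM factors, IR (20.3 to 37.7) and SHAM (33.6 to 48.6) overlapped. Kcnip2 changed by -0.82 ± 0.15 on the log2 scale in IR against SHAM, with an adjusted p of 0.000234 in edgeR's quasi-likelihood test with Benjamini-Hochberg adjustment. Scaled to cardiomyocyte markers the change was -0.12 and not called (edgeR adjusted p = 0.411).

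Kcnd3, the second pore subunit of the transient outward current, had lowest, median and highest levels of 7.71, 9.97 and 13.3 CPM in IR+Decursin, 8.71, 9.30 and 10.9 CPM in IR, and 11.5, 13.6 and 14.9 CPM in SHAM. Here too IR and SHAM did not overlap in CPM, but the IR+Decursin hearts reached both below the IR range and into the SHAM range. In FPKM, without TMM factors, IR (0.790 to 1.09) and SHAM (0.904 to 1.22) overlapped. Kcnd3 changed by -0.47 ± 0.12 on the log2 scale in IR against SHAM (adjusted p = 0.00419, edgeR's quasi-likelihood test with Benjamini-Hochberg adjustment), and by 0.25 with cardiomyocyte marker scaling.

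The pore subunits were also set against each other. Within a library, counts of Kcnd2 over counts of Kcnd3 had a lowest, median and highest value of 1.25, 1.57 and 2.11 in IR+Decursin, 0.891, 1.01 and 1.35 in IR, and 1.15, 1.50 and 1.58 in SHAM. This ratio needs no scaling between libraries. All but 1 of the IR hearts lay below every SHAM heart, and IR+Decursin and IR overlapped only between 1.25 and 1.35. Kcnip2 counts over the summed counts of Kcnd2 and Kcnd3 had medians of 4.06 in IR+Decursin, 4.13 in IR and 4.54 in SHAM, with ranges of 3.28 to 5.78 in IR+Decursin, 3.49 to 5.51 in IR and 4.16 to 5.27 in SHAM. For this ratio the 3 groups overlapped. No test was run on the ratios.

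**Figure D2:**
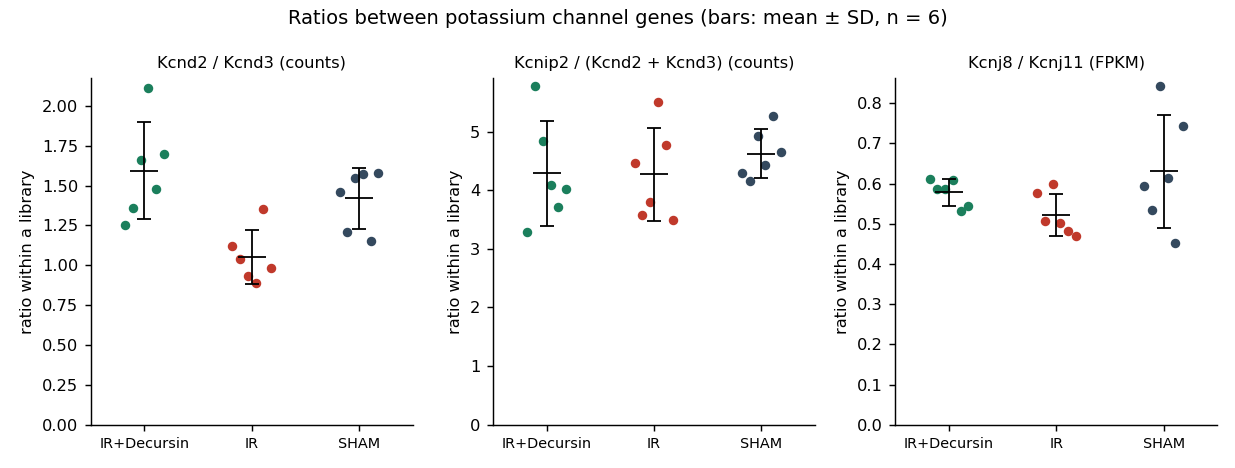
Ratios between potassium channel genes within each library (y axis, no unit, from 0) for IR+Decursin, IR and SHAM hearts from left to right, with points for single hearts and bars for mean ± SD, n = 6. Kcnd2 over Kcnd3 in counts was 0.891 to 1.35 in IR and 1.15 to 1.58 in SHAM, and Kcnip2 over both pore subunits and Kcnj8 over Kcnj11 (in FPKM) overlapped in all groups.

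Promoter sequences were at hand for 6 of the 9 genes, from RefSeq on build GRCm38.p6, as 250 bases before to 50 bases after each start. Shown are Kcnd2, Kcnip2 and Kcna5, which had the largest falls in IR, and Kcnj2, which was not called. Capitals mark CACCC on either strand (GGGTG when read on the other strand), the core bound by Krüppel-like factors; Klf15, one of them, is known as a regulator of Kcnip2 in the mouse heart. Each sequence is written 5′ to 3′ along the gene.
Kcnd2, chr6:21215096-21215395, plus strand: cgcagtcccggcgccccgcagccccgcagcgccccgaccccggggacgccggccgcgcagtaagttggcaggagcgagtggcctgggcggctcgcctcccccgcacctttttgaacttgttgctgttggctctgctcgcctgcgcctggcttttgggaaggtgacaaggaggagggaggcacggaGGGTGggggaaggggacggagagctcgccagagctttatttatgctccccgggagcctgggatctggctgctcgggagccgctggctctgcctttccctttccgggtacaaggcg
Kcnip2, chr19:45816014-45816313, minus strand: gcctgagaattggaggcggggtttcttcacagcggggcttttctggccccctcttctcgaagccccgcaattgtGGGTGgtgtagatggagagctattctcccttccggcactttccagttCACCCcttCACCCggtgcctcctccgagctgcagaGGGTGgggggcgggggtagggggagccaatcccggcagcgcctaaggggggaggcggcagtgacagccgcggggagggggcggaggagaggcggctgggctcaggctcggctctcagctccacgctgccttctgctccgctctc
Kcna5, chr6:126535506-126535805, minus strand: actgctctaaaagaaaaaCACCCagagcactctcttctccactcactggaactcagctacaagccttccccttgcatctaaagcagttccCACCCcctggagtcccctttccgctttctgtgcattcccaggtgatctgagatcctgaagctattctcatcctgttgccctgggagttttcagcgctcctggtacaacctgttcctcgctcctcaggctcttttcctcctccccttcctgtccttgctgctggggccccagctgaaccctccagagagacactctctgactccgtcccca
Kcnj2, chr11:111065914-111066213, plus strand: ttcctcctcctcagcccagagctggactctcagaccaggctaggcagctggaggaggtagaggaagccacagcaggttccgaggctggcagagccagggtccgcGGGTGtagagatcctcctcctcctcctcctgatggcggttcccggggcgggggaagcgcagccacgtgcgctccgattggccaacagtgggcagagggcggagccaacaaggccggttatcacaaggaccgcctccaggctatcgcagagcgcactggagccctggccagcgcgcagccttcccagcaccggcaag

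CACCC occurred at least once in 6 of the 6 promoters, against 57.5% of 32851 promoters in the table. The number of matches was 1 in Kcnd2 and Kcnj2, 2 in Kcna5, 3 in Kcnd3 and 4 in Kcnip2 and Kcnh2, which is not the order of the falls. GGGCGG, the core of GC boxes, occurred in 4 of the 6 (35.7% of all promoters), and the E-box CANNTG in 4 of the 6 (72.3%). GGAAA, the core of NFAT sites, occurred in 4 of the 6 (61.3%). AGATAA, a form of the GATA motif, was in 0 of the 6 (11.2%), and other forms were not searched. The TATA box, searched as TATAAA, was in 0 of the 6 (13.6%). The Iroquois motif ACANNTGT was in 0 of the 6 (7.38%), and any match of it would also be a match of the E-box. All motifs were searched on both strands. Kcna5 stood apart in base composition, with 55.0% GC and 4 CG dinucleotides, while the other 5 had 64.0 to 74.3% GC and 18 to 26 CG dinucleotides. The medians over all promoters were 52.7% and 7.00. A match is a description of these windows and not of binding.

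Kcna5, the channel of the slowly inactivating outward current, was measured at a lowest, median and highest level of 17.6, 23.3 and 35.5 CPM in IR+Decursin, 12.8, 16.6 and 28.4 CPM in IR, and 23.8, 29.4 and 47.9 CPM in SHAM. All but 1 of the IR hearts lay below every SHAM heart, the exception being IR 6. Kcna5 changed by -0.79 ± 0.21 on the log2 scale in IR against SHAM, with an adjusted p of 0.00465 in edgeR's quasi-likelihood test with Benjamini-Hochberg adjustment. Leaving out single libraries moved that change between -0.97 and -0.63, and marker scaling moved it to -0.05.

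Of the delayed rectifier genes Kcnh2 passed in IR against SHAM with TMM factors and Kcnq1 did not, and the difference between them was not tested. Kcnh2, the pore of the rapid delayed rectifier, had lowest, median and highest levels of 41.5, 62.1 and 84.0 CPM in IR+Decursin, 34.3, 44.0 and 52.2 CPM in IR, and 52.8, 59.2 and 69.9 CPM in SHAM. In CPM the highest IR heart lay just under the lowest SHAM heart, while IR+Decursin split into 3 hearts below and 3 above all SHAM hearts. In FPKM, without TMM factors, IR (7.28 to 11.3) and SHAM (8.99 to 12.8) overlapped. Kcnh2 changed by -0.46 ± 0.16 on the log2 scale in IR against SHAM (adjusted p = 0.0258, edgeR's quasi-likelihood test with Benjamini-Hochberg adjustment) and by 0.23 with marker scaling. The call was lost without SHAM 1, SHAM 4, IR 2 or IR 6, with adjusted p-values up to 0.0621 in the same edgeR test.

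Kcnq1, the pore of the slow delayed rectifier, had lowest, median and highest levels of 28.0, 34.7 and 44.2 CPM in IR+Decursin, 24.5, 29.5 and 33.3 CPM in IR, and 22.5, 29.4 and 36.1 CPM in SHAM. IR hearts lay wholly within the SHAM range. The log2 fold change of IR over SHAM was 0.02 ± 0.13, with an adjusted p of 0.919 in edgeR's quasi-likelihood test with Benjamini-Hochberg adjustment. Per 1 M cardiomyocyte marker counts, Kcnq1 had 346 to 518 counts in IR+Decursin, 365 to 588 in IR and 208 to 324 in SHAM. On that scale neither injured group overlapped with SHAM, and the log2 change in IR was 0.74 (edgeR adjusted p = 8.68e-05). This is the shift of all genes under that scaling: their median was 0.72, 77.3% of them were called higher, and Kcnq1 stood 0.02 above the median.

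Of the genes of the background leak, the resting potential and the ATP-sensitive current, 1 passed in IR against SHAM with TMM factors. Kcnk3, the acid-sensitive leak channel, had lowest, median and highest levels of 146, 187 and 263 CPM in IR+Decursin, 120, 151 and 182 CPM in IR, and 170, 212 and 274 CPM in SHAM. All but 1 of the IR hearts lay below every SHAM heart. Kcnk3 changed by -0.50 ± 0.15 on the log2 scale in IR against SHAM (adjusted p = 0.0117, edgeR's quasi-likelihood test with Benjamini-Hochberg adjustment) and by 0.21 with marker scaling.

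Kcnj2, the inward rectifier of the resting potential, had lowest, median and highest levels of 30.6, 42.3 and 53.3 CPM in IR+Decursin, 31.9, 39.8 and 52.8 CPM in IR, and 39.5, 50.0 and 70.1 CPM in SHAM. The 3 groups overlapped widely. Its log2 fold change in IR over SHAM was -0.36 ± 0.17 and did not pass (adjusted p = 0.0806, edgeR's quasi-likelihood test with Benjamini-Hochberg adjustment). It passed without SHAM 6, IR 1 or IR 2, with adjusted p down to 0.0396 in the same edgeR test.

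Kcnj11, the pore of the ATP-sensitive channel of ventricular muscle, had lowest, median and highest levels of 60.1, 90.1 and 116 CPM in IR+Decursin, 50.8, 74.0 and 94.6 CPM in IR, and 80.8, 97.1 and 112 CPM in SHAM. In this gene 4 of 6 IR hearts lay below every SHAM heart. The log2 fold change of IR over SHAM was -0.38 ± 0.16 and just missed the threshold (adjusted p = 0.0562, edgeR's quasi-likelihood test with Benjamini-Hochberg adjustment). It passed in DESeq2 (adjusted p = 0.0424) and in limma voom with quality weights (adjusted p = 0.0293). Kcnj8, the ATP-sensitive pore of vascular muscle and pericytes, over Kcnj11 in FPKM had medians of 0.586 in IR+Decursin, 0.504 in IR and 0.604 in SHAM, with overlapping ranges of 0.532 to 0.612 in IR+Decursin, 0.469 to 0.598 in IR and 0.453 to 0.842 in SHAM.

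In IR, 17 of the 18 cardiomyocyte markers also fell with TMM factors, and with total counts 11 fell and 1 rose. With TMM factors their median log2 fold change was -0.67 against -0.47 for the 9 channel genes. Of the other cell types, 12 of 12 macrophage and monocyte markers and 10 of 12 fibroblast markers rose in IR, and 1 fibroblast marker fell. Summed fibroblast markers ran to 3220 to 12787 CPM in IR+Decursin, 9690 to 13217 CPM in IR and 2657 to 3316 CPM in SHAM. The part of these cell type markers in the channel changes was not tested. A change of scaling moves all genes by about the same amount, and the median log2 fold change of all genes was -0.00 with TMM factors, 0.31 with total counts and 0.72 with marker scaling. With marker scaling Kcnd2 stood at -0.91 and Kcnd3 at -0.47 from that median; such a distance is nearly the same under any scaling by construction and is no check on the scaling.

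**Figure D3:**
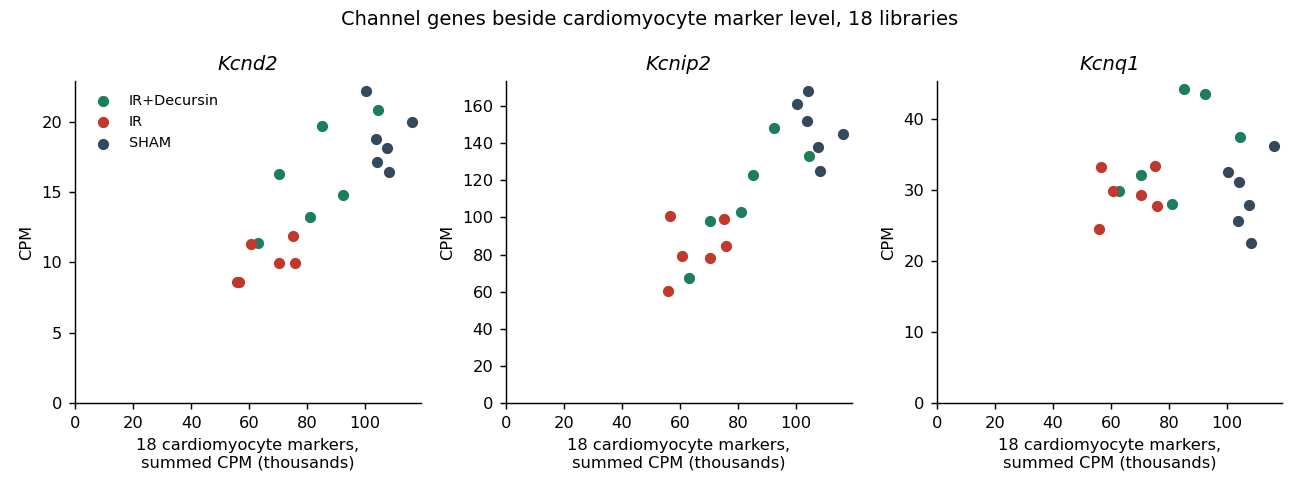
Level of Kcnd2, Kcnip2 and Kcnq1 (CPM, y axes from 0) against the summed level of 18 cardiomyocyte markers (in units of 1000 CPM, x axis from 0) in 18 hearts, coloured by group. For Kcnd2 and Kcnip2 the IR hearts lie at the low end of both axes and the SHAM hearts at the high end, while the IR and SHAM hearts of Kcnq1 share 1 range on the y axis; with marker scaling Kcnd2 and Kcnip2 remained lower in IR (-0.20 and -0.12, log2) but were not called.

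With decursin added to ischemia-reperfusion, each of the 9 genes had a higher estimate than in IR alone, and 0 passed the test. The edgeR quasi-likelihood test called 0% of all tested genes in either direction, 0 of 15088. At an unadjusted p under 0.05 it held 2712 genes (18.0%), 1524 of them higher (10.1%), and 6 of the 9 channel genes were among the higher ones: Kcnd2, Kcnip2, Kcna5, Kcnh2, Kcnq1 and Kcnk3. DESeq2 called 345 genes higher (3.07%) and 84 lower (0.747%) of the 11247 to which it gave an adjusted p, and limma voom with quality weights called 0. The median log2 fold change was 0.37 over the 9 genes, 0.31 over the 18 cardiomyocyte markers and -0.02 over all genes. With marker scaling the median was 0.03 over the 9 genes and -0.33 over all genes. The signs of Kcnd3 and Kcnj2 turned with total counts, and those of Kcnd3, Kcnj2, Kcnq1 and Kcnj11 turned with marker scaling, which called 0 genes.

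Kcnd2 again differed most, with 5 of 6 IR+Decursin hearts above every IR heart and a log2 fold change of 0.67 ± 0.13. Its unadjusted p was 5.27e-05 and its adjusted p was 0.0883 in edgeR's quasi-likelihood test with Benjamini-Hochberg adjustment. DESeq2 called it, with an adjusted p of 0.00347. Kcnd2 averaged 16.0 ± 3.66 CPM in IR+Decursin and 10.1 ± 1.37 CPM in IR (SD, n = 6 each).

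Kcnh2 followed, with a log2 fold change of 0.51 ± 0.16 (adjusted p = 0.146, edgeR's quasi-likelihood test with Benjamini-Hochberg adjustment) and 3 of 6 IR+Decursin hearts above every IR heart. Kcna5 had 0.47 ± 0.21 and 2 such hearts, Kcnip2 had 0.42 ± 0.15 and 4 such hearts, and Kcnk3 had 0.37 ± 0.15 and 3 such hearts. Kcnq1 and Kcnj11 each had a log2 fold change of 0.27. Kcnd3 had 0.08 and Kcnj2 had 0.02, and in both genes IR+Decursin hearts lay beyond each end of the IR range. In all 8 genes other than Kcnd2 the edgeR adjusted p was between 0.146 and 0.954.

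The IR+Decursin hearts were spread more widely than the other hearts. Summed over the 9 genes they held 418, 680, 501, 481, 730 and 731 CPM in IR+Decursin 1 to 6, against 367 to 531 CPM in IR and 582 to 795 CPM in SHAM. With TMM factors IR+Decursin 2, 5 and 6 lay above every IR heart and inside the SHAM range, and IR+Decursin 1, 3 and 4 lay inside the IR range. The TMM factor was 0.831 in IR+Decursin 6 and 1.032 to 1.125 in the other hearts of its group. The place of a heart against the SHAM range therefore depends on the scaling. The same 3 high hearts had summed fibroblast markers of 7576, 4017 and 3220 CPM and cardiomyocyte markers of 92511, 85178 and 104391 CPM. The other 3 had 12787, 11973 and 12242 CPM of fibroblast markers and 62905, 81018 and 70250 CPM of cardiomyocyte markers. IR+Decursin 2 is the library with Xist and IR+Decursin 6 the one rich in Gm26917. Summed atrial markers were 2283 CPM in IR+Decursin 6 and 336 to 788 CPM in the other IR+Decursin hearts. The part of any of these in the spread was not tested.

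Single libraries decided the calls in this comparison. Without IR+Decursin 1, the lowest of its group, edgeR called 696 genes higher (4.58%) and 280 lower, and 3 of the channel genes rose: Kcnd2 (log2 fold change 0.75, adjusted p = 0.00860), Kcnip2 (0.53, 0.0237) and Kcnh2 (0.60, 0.0323). Without IR+Decursin 4 it called 2 genes higher, neither of them a channel gene here. Without IR+Decursin 6, Kcnd2 stood at 0.59 with an edgeR adjusted p of 0.240. Without the 3 libraries with Xist, Kcnd2 stood at 0.64 with an edgeR adjusted p of 0.456.

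Set against SHAM, the IR+Decursin hearts had 1 of the 9 genes lower, Kcnd3, and 0 higher. In that comparison 11.8% of all tested genes were called lower and 17.5% higher by edgeR's quasi-likelihood test with Benjamini-Hochberg adjustment, and the median log2 fold change was -0.23 over the 9 genes and -0.00 over all genes. At an unadjusted p under 0.05 edgeR held 1 of the 9 higher, Kcnq1 (22.6% of all genes). DESeq2 called 0 of the 9 higher (16.3% of the 17717 genes to which it gave an adjusted p). Kcnd3 changed by -0.39 ± 0.12 (adjusted p = 0.0251 in the same edgeR test), with 4 of 6 hearts below every SHAM heart, and stood at -0.01 with marker scaling. The call was lost without SHAM 5 or IR+Decursin 1, 3 or 4, with edgeR adjusted p-values up to 0.0661.

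Kcnip2 stood at the threshold, with a log2 fold change of -0.40 ± 0.15 and an adjusted p of 0.0527 in edgeR's quasi-likelihood test with Benjamini-Hochberg adjustment. It passed in DESeq2 (adjusted p = 0.0339) and in edgeR without the libraries with Xist (adjusted p = 0.0248). Kcnip2 was not called with total counts, nor with marker scaling, which called 0.424% of all genes lower. Kcnd2 had -0.23 ± 0.13, Kcna5 -0.33 ± 0.21 and Kcnj2 -0.34 ± 0.17, and none of these passed (edgeR adjusted p = 0.201, 0.258 and 0.134). Kcnh2 had 0.04 ± 0.16, and Kcnj11 and Kcnk3 each had -0.12. Kcnq1 was the member furthest above SHAM, at 0.29 ± 0.13 (edgeR adjusted p = 0.0874), with 3 of 6 hearts above every SHAM heart. It was called higher with total counts (0.51, edgeR adjusted p = 0.00807), which called 31.7% of all genes higher, and with marker scaling (0.67, edgeR adjusted p = 0.000997), which called 48.5% higher.

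The comparisons share groups: IR enters as the upper group of one and the lower group of another, and SHAM serves both injured groups. Side by side, Kcnd2 read -0.90 for IR over SHAM, 0.67 for IR+Decursin over IR and -0.23 for IR+Decursin over SHAM. Kcnd3 read -0.47, 0.08 and -0.39 in the same order, and Kcnh2 read -0.46, 0.51 and 0.04. No test of whether these genes differed from each other in response to decursin was made.

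**Figure D4:**
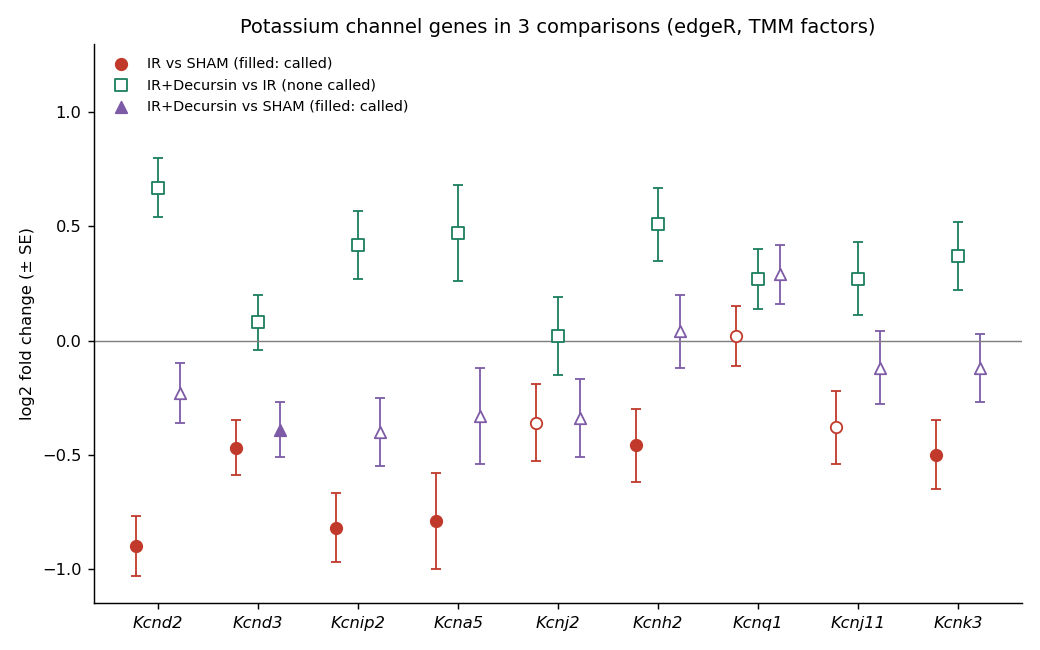
Log2 fold change ± SE (y axis) of the 9 potassium channel genes for IR over SHAM (circles), IR+Decursin over IR (squares) and IR+Decursin over SHAM (triangles), from 1 edgeR fit of 18 libraries with TMM factors; filled symbols passed an adjusted p under 0.05. Kcnd2, Kcnd3, Kcnip2, Kcna5, Kcnh2 and Kcnk3 are filled and negative for IR over SHAM, of which Kcnd3, Kcnh2 and Kcnk3 turn positive when libraries are scaled to cardiomyocyte markers, and no square is filled.

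Levels can be compared between genes only per length, for which FPKM (counts per kilobase and per 1 M) serve. In SHAM hearts Kcnk3 was highest at 49.9 ± 9.58 FPKM, then Kcnip2 at 41.3 ± 5.71, Kcnj11 at 23.6 ± 3.33 and Kcnh2 at 10.6 ± 1.31 FPKM (SD, n = 6). Kcna5 at 9.29 ± 2.87, Kcnj2 at 8.61 ± 1.97 and Kcnq1 at 7.36 ± 1.25 FPKM followed, and Kcnd3 had 1.06 ± 0.117 FPKM. Kcnk3 and Kcnip2 overlapped in range, as did each neighbouring pair from Kcnh2 to Kcnq1. Kcnip2 and Kcnj11, Kcnj11 and Kcnh2, and Kcnq1 and Kcnd3 did not overlap.

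The first 4 places were the same in all groups. Kcnk3 had 52.7 ± 11.6 FPKM in IR+Decursin and 43.7 ± 6.52 FPKM in IR, and Kcnip2 had 36.0 ± 8.89 FPKM in IR+Decursin and 28.9 ± 6.12 FPKM in IR. Kcnq1 had rank 5 in IR+Decursin (10.5 ± 2.18 FPKM) and in IR (9.26 ± 1.46 FPKM), and rank 7 in SHAM, in a run of genes whose ranges overlapped.

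The FPKM of Kcnd2 is a special case. At 0.166 ± 0.0276 FPKM in IR+Decursin, 0.112 ± 0.0157 in IR and 0.169 ± 0.0215 in SHAM it came last. The length behind its FPKM is 98276 bases, 19.1 times the 5152 bases of its exons in the GENCODE M21 annotation, while the other 8 members had ratios of 0.861 to 1.17. Of 20140 symbols compared, 454 (2.25%) had a length over 5 times that of GENCODE M21. With the GENCODE M21 lengths Kcnd2 had 3.17 ± 0.527 in IR+Decursin, 2.14 ± 0.300 in IR and 3.23 ± 0.411 in SHAM, in counts per kilobase and per 1 M, above Kcnd3 in each group (1.09 ± 0.217 in IR+Decursin, 1.10 ± 0.155 in IR and 1.23 ± 0.137 in SHAM). The place of Kcnd2 among the members therefore depends on the length used, and which stretch its reads came from was not tested. Comparisons of Kcnd2 between hearts by counts do not use the length. The limma-trend fits on FPKM do use it, through the constant added to FPKM and the minimum mean FPKM.

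Each member was matched to the genes whose standardised log2(CPM + 1) followed it most closely over the 18 hearts, by the root mean square difference of z-scores. Over 13539 candidates the median difference was 1.41 to 1.43. Kcnd2 was closest to Mcur1, a mitochondrial calcium uptake regulator, and Jph1, a junctophilin, both at 0.30. Kcnip2 was closest to Rnf187 (0.31) and Esrra (0.32), a nuclear receptor of energy metabolism. Kcnh2 was closest to Trak1 (0.25) and Gna11 (0.29), Kcnj11 to Camk2a (0.26) and Spg7 (0.31), and Kcnk3 to Asb2 (0.25) and Ppp1r12b (0.29).

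The other 4 had no gene as near. Kcnd3 was closest to Fbxw7 (0.50) and Ddo (0.51), Kcna5 to Adipor2 (0.47) and Timp4 (0.52), and Kcnq1 to Faap100 (0.51) and Bcam (0.52). Kcnj2 was at a distance of 0.58 from Enpp4. The hearts share group, batch and cell make-up, so these distances describe likeness over these libraries only.

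The wider family of potassium channel genes held calls in both directions, in shares near or below those of all genes in IR against SHAM. Of 91 other potassium channel and accessory genes listed, 84 were in the table and 49 were tested. In IR against SHAM 10 rose and 11 fell with TMM factors (20.4% and 22.4%), against 25.3% and 21.7% of all genes. With total counts 11 rose and 4 fell (22.4% and 8.16%), against 46.5% and 7.00% of all genes. With marker scaling 25 rose and 0 fell (51.0% and 0%), against 77.3% and 1.03% of all genes. The median log2 fold change was -0.19, 0.12 and 0.51 under these scalings in turn. In IR+Decursin against IR 0 passed in edgeR (median 0.14), and in IR+Decursin against SHAM 8 rose and 1 fell with TMM factors (16.3% and 2.04%, median 0.09), against 17.5% and 11.8% of all genes. With marker scaling 15 rose and 0 fell there (30.6% and 0%), against 48.5% and 0.424% of all genes. Values for single genes below are for IR against SHAM with TMM factors unless another is named, and each gene's value with marker scaling is given in its paragraph. With total counts, of the 18 genes named below, Kcnj5 turned sign (0.17) and the calls of Abcc9, Kcnj8, Kcnj12 and Kcnn1 were lost (edgeR adjusted p = 0.315, 0.068, 0.47 and 0.135).

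Of the other voltage-gated pore genes 3 rose and 3 fell of 16 tested in IR against SHAM. Kcnd1, the third member of the Kcnd family, averaged 1.32 CPM in IR+Decursin, 1.67 CPM in IR and 0.418 CPM in SHAM, a log2 fold change of 1.99 ± 0.32 in IR. Kcna3, known from T lymphocytes and macrophages, rose by 2.80 ± 0.56 on the log2 scale, at averages of 0.315 CPM in IR+Decursin, 0.723 CPM in IR and 0.0971 CPM in SHAM. Kcna7 changed by -0.99 ± 0.18 and was the 1 gene of the family called lower in IR+Decursin against SHAM (-0.57 ± 0.18), a call lost with total counts (-0.36) and with marker scaling (-0.18). The edgeR adjusted p-values in IR were 6.2e-05 for Kcnd1, 0.000425 for Kcna3 and 0.000162 for Kcna7. With marker scaling Kcnd1 stood at 2.72 and Kcna3 at 3.54, while Kcna7 stood at -0.29 and was not called (edgeR adjusted p = 0.135).

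Among accessory subunits 2 rose and 4 fell of 13 tested in IR against SHAM. Kcnab2, a beta subunit of Kcna channels, averaged 5.57 CPM in IR+Decursin, 7.77 CPM in IR and 2.07 CPM in SHAM, and rose by 1.91 ± 0.21 in IR (edgeR adjusted p = 4.34e-06). Kcne1, the partner of Kcnq1 in the slow delayed rectifier, averaged 3.32 CPM in IR+Decursin, 2.40 CPM in IR and 5.49 CPM in SHAM, and changed by -1.19 ± 0.34 (edgeR adjusted p = 0.00778). Its pore gene Kcnq1 stood at 0.02, and the difference between them was not tested. Kcne4, an inhibitory partner of Kcnq1, rose by 1.21 ± 0.25 (edgeR adjusted p = 0.000596). Abcc9, the sulfonylurea receptor of muscle ATP-sensitive channels, averaged 299 CPM in IR+Decursin, 255 CPM in IR and 343 CPM in SHAM, a change of -0.43 ± 0.11 (edgeR adjusted p = 0.00381) that turned to 0.28 with marker scaling. Under that scaling Kcnab2 stood at 2.66 and Kcne4 at 1.94, while Kcne1 stood at -0.47 and was not called (edgeR adjusted p = 0.233).

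Of the other inward rectifiers 1 rose and 2 fell of 8 tested in IR against SHAM. Kcnj8 changed by -0.62 ± 0.16 and Kcnj12, a partner of Kcnj2 in the inward rectifier, by -0.42 ± 0.14 (edgeR adjusted p = 0.00344 and 0.0168), and both turned sign with marker scaling (0.06 and 0.28). Kcnj15 rose by 1.34 ± 0.46 (edgeR adjusted p = 0.0224) and stood at 2.07 with marker scaling. Kcnj3 and Kcnj5, the acetylcholine-gated atrial pair, had log2 fold changes of -0.37 and -0.14 and did not pass (edgeR adjusted p = 0.173 and 0.356), with 0.34 and 0.57 under marker scaling.

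Of the two-pore-domain genes other than Kcnk3, 3 rose and 0 fell of 5 tested: Kcnk13 by 2.08 ± 0.37, Kcnk6 by 0.92 ± 0.18 and Kcnk1 by 2.11 ± 0.72. Kcnk13, known from microglia in the mouse, averaged 1.99 CPM in IR+Decursin, 3.18 CPM in IR and 0.748 CPM in SHAM. Of the calcium- or sodium-activated genes 1 rose and 2 fell of 7 tested. Kcnn4, the intermediate-conductance channel of immune and red cells, rose by 3.81 ± 0.49 (edgeR adjusted p = 1.05e-05), at averages of 2.40 CPM in IR+Decursin, 5.08 CPM in IR and 0.362 CPM in SHAM. The small-conductance genes Kcnn2 and Kcnn1 changed by -0.70 ± 0.16 and -0.58 ± 0.16 (edgeR adjusted p = 0.00124 and 0.00516), and by -0.01 and 0.13 with marker scaling, which called neither. Under that scaling Kcnk13 stood at 2.86, Kcnk6 at 1.66, Kcnk1 at 2.73 and Kcnn4 at 4.57. Summed macrophage and monocyte markers ran to 609 to 1851 CPM in IR+Decursin, 1405 to 3029 CPM in IR and 436 to 598 CPM in SHAM, and their part in the rise of Kcna3, Kcnk13 and Kcnn4 was not tested.

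**Figure D5:**
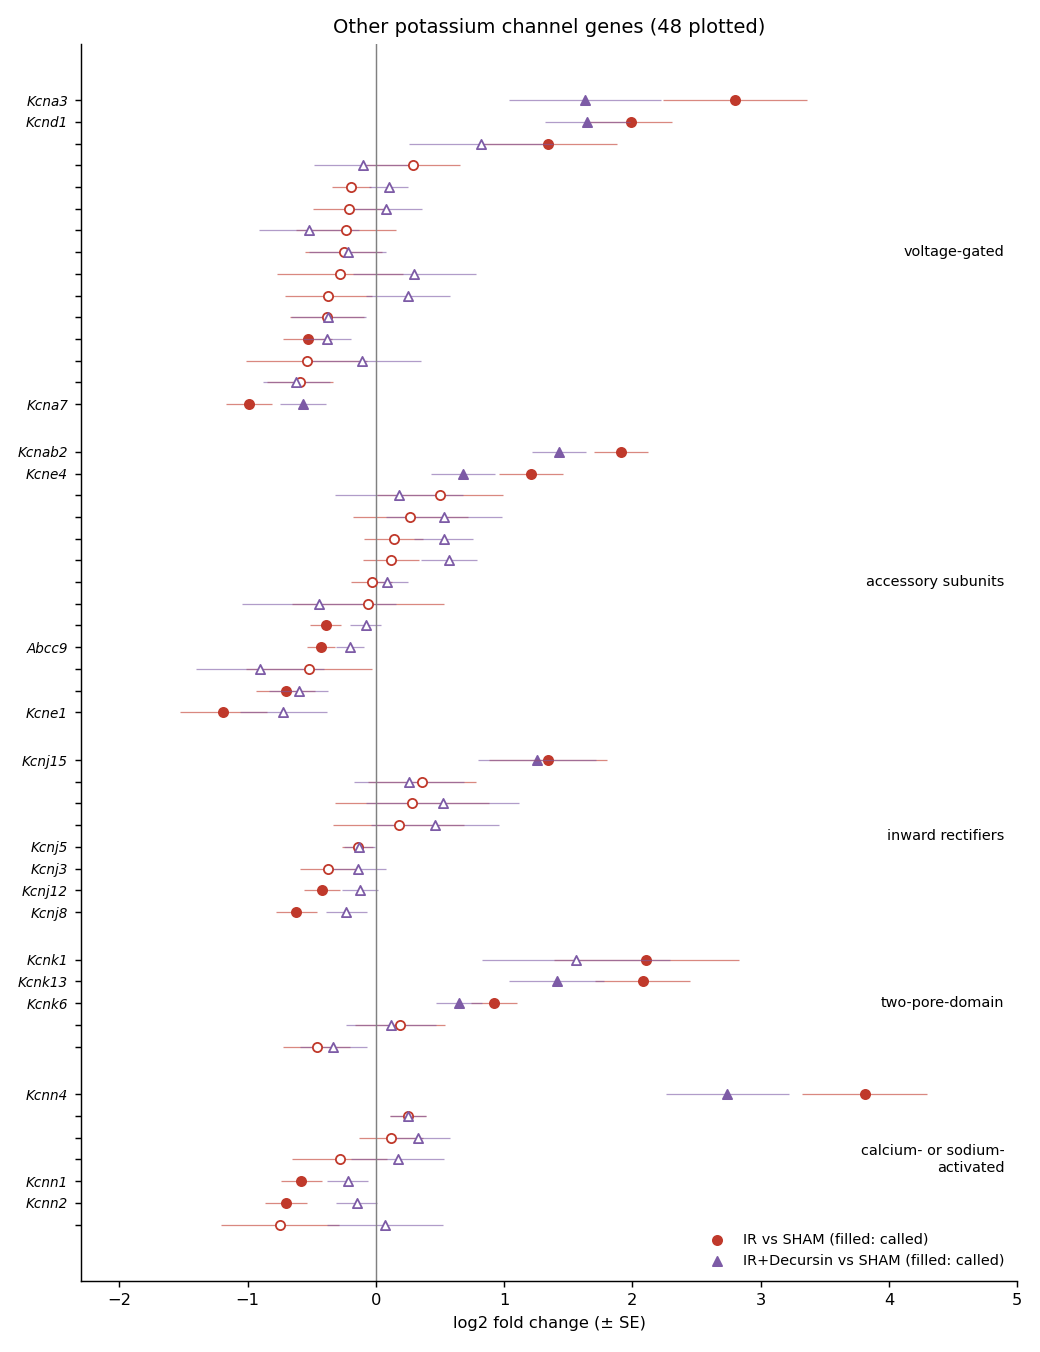
Log2 fold change ± SE (x axis) of 48 of the 49 other potassium channel and accessory genes tested, the 18 named in the text by symbol, for IR over SHAM (circles) and IR+Decursin over SHAM (triangles), with filled symbols for an edgeR adjusted p under 0.05, with TMM factors. Within each class genes run from high to low in IR over SHAM; Kcnn4 stands highest at 3.81 and Kcne1 lowest at -1.19.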

How the data were processed

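Total RNA from 18 hearts was sequenced, 1 library per animal, and groups and replicate numbers were taken from the labels. The authors deposited a table of raw counts and a table of FPKM, both by gene symbol. The submitters' processing notes name fastp, HISAT2, HTSeq and the build GRCm39; no version, annotation release or strand setting is stated in them, so genes that overlap others or have close copies are uncertain. The deposited FPKM values equal counts over length and library total (largest relative deviation 1.58e-09), and carry no further scaling.

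Counts were tested with edgeR 4.0.16 (R 4.3.3): filterByExpr by group left 15088 of 25731 symbols, libraries were scaled by TMM factors, and 1 robust quasi-likelihood fit of all 18 libraries (15 residual degrees of freedom) gave 3 two-sided comparisons. P-values were adjusted by Benjamini-Hochberg over all genes tested and called under 0.05. The SE is the size of the log2 fold change over the square root of F. The fit was tested on simulated data. Levels are CPM with TMM factors; at 27.5 to 35.0 M counts a library, every member had at least 273 counts. P-values set the difference between groups against the spread between animals within groups, and cannot separate group from batch. Alternatives were other scalings and filters, DESeq2 1.42.0, limma 3.58.1 with voom weights or on log2(FPKM + 1) and log2(FPKM + 0.1), fits of 2 groups, a replicate block, and leaving out libraries.

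The members, gene lists and tests were chosen with earlier results of these data known. Besides all 9 members, up to 4 genes per list were named, those with the smallest adjusted p among genes called in IR against SHAM. Kcnj3 and Kcnj5 were added after their values were seen. Each member's 2 nearest genes were chosen without model symbols (Gm, Rik). Of the genes these rules gave, 2 are not reported here. GENCODE M21 and RefSeq tables of GRCm38, an older build than the counts, gave exon lengths, names and promoters.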

Additional observations from a re-analysis of the deposited data

How the results depend on the processing

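Against SHAM, calls depended on how libraries were scaled; in IR+Decursin against IR every scaling tried gave 0 members called, and the calls depended on the tool and on single libraries. In IR against SHAM, total counts gave 7012 genes higher, 1056 lower and 3 members lower; cardiomyocyte marker scaling gave 11668 higher, 155 lower, and 3 members higher with 0 lower. Limma-trend gave 6919 higher and 1106 lower with log2(FPKM + 1), and 6955 and 1101 with log2(FPKM + 0.1), each with 3 members lower. At a mean of at least 1 FPKM it gave 979 lower with 2 members lower. Kcnd2 and Kcnd3 lay under that mean over all libraries and were not in that fit in any comparison. This rests on the lengths behind the FPKM. With GENCODE M21 lengths both averaged above 1 count per kilobase and per 1 M in each group. In IR+Decursin against SHAM, total counts gave 4781 higher and 377 lower with 1 member higher and 0 lower; marker scaling gave 7315 higher and 64 lower with 2 members higher and 0 lower. Limma-trend gave 4274 higher with log2(FPKM + 0.1), and 403, 391 and 370 lower in the 3 forms, each with 1 member higher and 0 lower. RLE factors, upper-quartile factors, DESeq2 and the fit without the libraries with Xist each gave 2 members lower there, and voom 3. The main fit gave 1 member lower there and called 11.8% of all genes lower. The shares of all genes called lower in those other fits are not given here, so their member counts have no background beside them. In IR+Decursin against IR, DESeq2 gave 345 higher, 84 lower and 1 member higher. FPKM and total counts carry no composition factors; other causes were not tested.

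Signs turned as follows. With marker scaling, IR against SHAM had Kcnd3 0.25, Kcnj2 0.35, Kcnh2 0.23, Kcnj11 0.31 and Kcnk3 0.21; IR+Decursin against IR had Kcnd3 -0.26, Kcnj2 -0.32, Kcnq1 -0.06 and Kcnj11 -0.07; IR+Decursin against SHAM had Kcnd2 0.14, Kcna5 0.03, Kcnj2 0.04, Kcnj11 0.24 and Kcnk3 0.23. With total counts, IR+Decursin against IR had Kcnd3 -0.02 and Kcnj2 -0.07, and IR+Decursin against SHAM had Kcnj11 0.09 and Kcnk3 0.08. In limma-trend, IR+Decursin against IR had Kcnd3 -0.01 and Kcnj2 -0.06 with log2(FPKM + 1), -0.03 and -0.07 with log2(FPKM + 0.1), and Kcnj2 -0.06 at a mean of at least 1 FPKM; IR+Decursin against SHAM had 0.07 for Kcnj11 and Kcnk3 in all 3 forms. In voom, Kcnd3 had -0.06 and Kcnj2 -0.12 in IR+Decursin against IR, and Kcnh2 -0.10 in IR+Decursin against SHAM. Without the libraries with Xist, Kcnq1 had -0.02 in IR against SHAM, Kcnj2 -0.04 in IR+Decursin against IR and Kcnh2 -0.04 in IR+Decursin against SHAM. In that fit 4 members were called lower in IR against SHAM, and its share of all genes called lower is not given here. With all libraries 6 members and 21.7% of all genes were called lower.

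Leaving out 1 library at a time gave 3574 to 3794 genes higher, 3022 to 3549 lower and 5 to 8 members lower in IR against SHAM; 0 to 696 higher, 0 to 280 lower and 0 to 3 members higher in IR+Decursin against IR; and 2169 to 2972 higher, 1292 to 2158 lower, 0 to 1 members higher and 0 to 2 lower in IR+Decursin against SHAM. Kcnq1 then ran from -0.05 to 0.09 in IR against SHAM, Kcnd3 from -0.01 to 0.15 and Kcnj2 from -0.06 to 0.11 in IR+Decursin against IR, and Kcnh2 from -0.06 to 0.14 in IR+Decursin against SHAM. Replicate numbers share only a number (same-number correlations of -0.520 to 0.406). With the replicate block, IR against SHAM had 3591 genes higher and 3124 lower with 6 members lower, IR+Decursin against IR had 0, and IR+Decursin against SHAM had 2385 and 1488 with 1 member lower; no member's call changed.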

Other observations

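Genes that work beside the potassium channels were counted in IR against SHAM, where TMM factors called 25.3% of all genes higher and 21.7% lower, and cardiomyocyte marker scaling 77.3% and 1.03%. Of 15 sodium, calcium and pacemaker channel genes 3 rose and 4 fell (20.0% and 26.7%), near the shares of all genes, and 8 rose and 0 fell with marker scaling (53.3% and 0%). Hcn2, a pacemaker channel gene, changed by -0.99 ± 0.21 on the log2 scale (edgeR adjusted p = 0.000913), and Hcn4, the main pacemaker gene of the sinus node, averaged 6.14 CPM in IR+Decursin, 4.11 CPM in IR and 8.22 CPM in SHAM (edgeR adjusted p = 0.000343 for IR against SHAM). Both stood at -0.29 with marker scaling and were not called (edgeR adjusted p = 0.147 and 0.17). Cacna2d1, an accessory subunit of the cardiac calcium channel, changed by -0.70 ± 0.10, or 0.02 with marker scaling, and remained lower in IR+Decursin against SHAM with TMM factors (-0.42 ± 0.10, edgeR adjusted p = 0.00367), a call lost with total counts (-0.21) and with marker scaling (-0.03). Cacna1d, a calcium channel pore known from pacemaker and atrial cells, rose by 1.21 ± 0.25.

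Of 14 anchoring and trafficking partners 3 rose and 8 fell (21.4% and 57.1%), and 10 rose and 1 fell with marker scaling (71.4% and 7.14%). Bin1 and Dlg4, a membrane-bending protein of the T-tubule and a scaffold of Kcna channels, rose by 1.02 ± 0.13 and 1.14 ± 0.17. Ank2 and Cav3 changed by -0.67 ± 0.10 and -0.62 ± 0.10, and by 0.04 and 0.09 with marker scaling. Of 14 transcription factors of the outward current gradient 1 rose and 2 fell (7.14% and 14.3%), and 12 rose and 0 fell with marker scaling (85.7% and 0%). Nfatc4 rose by 1.10 ± 0.16. Klf15 changed by -0.57 ± 0.14 (0.14 with marker scaling) and Mef2c by -0.34 (0.36 with marker scaling). In IR+Decursin against IR 0 genes of these 3 lists passed in edgeR, with medians of 0.22, 0.14 and 0.11.

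Markers of other cells were measured beside the channel genes, and with TMM factors in IR against SHAM their counts were as follows, beside 25.3% of all genes higher and 21.7% lower. Of the tested markers 1 of 8 atrial (Nppa) rose, 2 rose and 2 fell of 8 conduction system, 1 rose and 3 fell of 12 endothelial, and 5 of 13 smooth muscle and pericyte markers fell. T and NK cell markers rose in 5 of 5, at summed levels of 1.44 to 3.63 CPM in IR+Decursin, 1.78 to 7.92 CPM in IR and 0.182 to 1.05 CPM in SHAM. Of Schwann cell and neuron markers 1 of 7 rose, of adipocyte markers 1 of 4 fell, and of skeletal muscle markers 1 rose and 1 fell of 5. Summed atrial markers reached 2283 CPM in IR+Decursin 6 and 2219 CPM in IR 2, against 341 to 983 CPM in the other IR hearts. The share of counts from 13 mitochondrial genes was 20.9 to 27.5% in IR+Decursin, 20.1 to 28.3% in IR and 28.4 to 32.8% in SHAM. Of 27 groups of 6 values checked for a single outlying heart (9 genes in 3 groups), 0 held one.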
